A study of Mus musculus with 2 samples.

Results

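Levels of 9 mouse epithelial genes that are known as targets of the repressor Zeb1 were measured in spatial transcriptomes of pancreatic tumors. The genes were listed by symbol as known targets and are 9 of the 19465 features counted. They are the junction and surface proteins Cdh1 and Epcam, the apical polarity protein Crb3, the splicing regulators Esrp1 and Esrp2, the transcription factors Ovol1, Ovol2 and Grhl2, and the trafficking GTPase Rab25. The data are 1 library from a tumor of KPC-shZEB1 cells and 1 library from a tumor of KPC-shV cells. KPC is a mouse pancreatic cancer line, shZEB1 stands for the knockdown of Zeb1 and shV for its control vector. Both lines were injected into the mouse pancreas, and the tissue is labelled orthotopic allograft tumor tissue. The protocol names 2 tumors per group, and it does not say which tumor a library covers. Gemcitabine is not named in the labels of these samples, whereas the paper describes the spatial assay as made on the tissues of its single-cell experiment, which came from mice given gemcitabine. The age and strain of the host mice are not in the labels.

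Zeb1 is a zinc finger factor that binds E-box sequences and represses epithelial genes during epithelial-mesenchymal transition. Loss of E-cadherin junctions, apical polarity and epithelial splicing is the usual mark of that transition. Ovol1, Ovol2 and Grhl2 are in turn known to repress Zeb1, so that the factors form a mutual antagonism. In normal pancreas, ducts and acini are themselves epithelial and express several of these genes.

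The assay, Visium CytAssist, hybridizes probes to RNA in a section and captures them on barcoded spots. A spot is a region of tissue, not a cell, and may mix tumor and host cells. The library labelled KPC-shZEB1 held 2220 spots and 140493626 unique molecular identifiers (UMIs), and the library labelled KPC-shV held 3552 spots and 172059528 UMIs. A level is the UMI count of a gene per 1000000 UMIs (CPM), and a ratio is log2 of the KPC-shZEB1 level divided by the KPC-shV level. With 1 library per group there was no replicate and no test. All 95% intervals (exact Poisson for levels, exact conditional binomial for ratios, exact binomial for shares) cover counting error only. Spots in which genes of pancreatic digestive enzymes took over 20% of the UMIs were called acinar-rich. KPC-shZEB1 had 757 such spots (34.1%) and KPC-shV had 248 (6.98%), which left 1463 and 3304 others. In bulk tissue regions such as these, fewer cells of a type and less RNA per cell cannot be told apart. Because probe number differs between genes, levels are compared between libraries or spots and not between genes.

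Upstream sequences were taken from a table of RefSeq promoters (GRCm38.p6), in which 4 of the 9 genes were matched (Epcam, Crb3, Rab25 and Ovol2). The 250 bases before each annotated start were searched on both strands for the E-box CACCTG, whose reverse complement is CAGGTG. Such a motif was found at Epcam, Crb3 and Rab25 and not in the window of Ovol2. Among all 32851 windows of this length, 17.2% held at least 1 and 2.06% held at least 2. The Epcam window held 2, beginning 187 and 19 bases before the start. The Rab25 window held 2, beginning 64 and 53 bases before the start. The Crb3 window of the more upstream start held 3, beginning 118, 63 and 7 bases before it, a number found in 0.247% of windows. The sequences are shown because this is the letter pattern that Zeb1 recognizes, with each E-box in capitals, and bases inside an annotated exon (GENCODE M21) are left out. They are Epcam at chr17:87635729-87635978 on the plus strand, Crb3 at chr17:57061951-57062140 on the plus strand and Rab25 at chr3:88548301-88548529 on the minus strand. The RefSeq starts of Crb3 and Ovol2 lie downstream of the first GENCODE start, so that both windows are inside the GENCODE gene. Of the 3 motifs of Crb3, 2 reached into an exon and are not shown. A match describes letters only, not occupancy.
Epcam: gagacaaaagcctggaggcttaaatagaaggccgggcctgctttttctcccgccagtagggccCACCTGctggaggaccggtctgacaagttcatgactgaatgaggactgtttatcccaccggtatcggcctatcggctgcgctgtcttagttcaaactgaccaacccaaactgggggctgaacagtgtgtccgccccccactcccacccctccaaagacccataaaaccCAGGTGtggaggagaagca
Crb3: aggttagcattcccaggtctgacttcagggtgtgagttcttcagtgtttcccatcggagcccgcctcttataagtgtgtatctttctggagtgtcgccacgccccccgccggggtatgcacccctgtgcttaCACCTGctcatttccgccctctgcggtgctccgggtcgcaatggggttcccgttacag
Rab25: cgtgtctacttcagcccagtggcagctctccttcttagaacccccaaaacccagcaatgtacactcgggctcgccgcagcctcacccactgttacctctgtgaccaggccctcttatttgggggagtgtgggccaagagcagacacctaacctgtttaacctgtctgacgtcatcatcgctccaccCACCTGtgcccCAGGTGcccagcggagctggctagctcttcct

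Zeb1 itself, the targeted gene, was counted first. Over all spots it had 1516 UMIs (10.8 CPM) under the label KPC-shZEB1 and 2137 UMIs (12.4 CPM) under KPC-shV, which gives a ratio of -0.20 (interval -0.30 to -0.11). Outside acinar-rich spots the sign turned, with 15.6 CPM against 12.7 CPM and a log2 ratio of 0.30 (0.20 to 0.40). Acinar UMIs enter the total over all spots. The median ratio of all genes with at least 100 UMIs in the 2 libraries together was -0.48 there and -0.01 outside acinar-rich spots. Zeb1 thus lay above this median in both sets of spots. The spot count of Zeb1 sums tumor and host cells, and outside acinar-rich spots it goes against the label. Below, KPC-shZEB1 always means the library labelled so.

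The 9 genes together were lower in the library labelled KPC-shZEB1. Most UMIs of this sum were of Epcam and Cdh1. Outside acinar-rich spots these had 73381 and 35320 of the 127959 UMIs in KPC-shZEB1. In KPC-shV they had 183092 and 65838 of 310306, so summed values describe mainly these genes. Over all spots the summed level was 985 CPM (interval 980 to 990) against 1820 CPM (1813 to 1826), with a ratio of -0.89 (-0.90 to -0.88). All 9 had a ratio below 0, where all but 13.65% of tested genes lay, and 4 of 9 were below -1, against 8.16% of the 19011 genes with at least 100 UMIs in the 2 libraries together. No member was above 1, where 2.08% of genes lay. The median ratio of the 9 was -0.97 and that of all tested genes was -0.48. Acinar UMIs enter the total over all spots, and with acinar genes out of that total the summed ratio was -0.53. Outside acinar-rich spots the median of all 18897 tested genes was -0.01. There the summed level of the 9 genes was 1496 CPM (1487 to 1504) against 1874 CPM (1867 to 1880), a ratio of -0.33 (-0.33 to -0.32). All 9 genes passed the minimum of 100 UMIs, 8 of 9 were below 0 (48.7% of tested genes were above it) and 3 of 9 (Grhl2, Rab25 and Ovol1) were below -1, against 1.71% of tested genes. None was above 1, where 3.79% of tested genes lay. The median ratio of the members was -0.70. The intervals of the 2 libraries did not overlap for any of the 9 genes in these spots. At this depth they are narrow, even for Cdh1 with its ratio of 0.05. The share of all tested genes without overlap was not computed, so this count does not set the members apart.

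**Figure D1:**
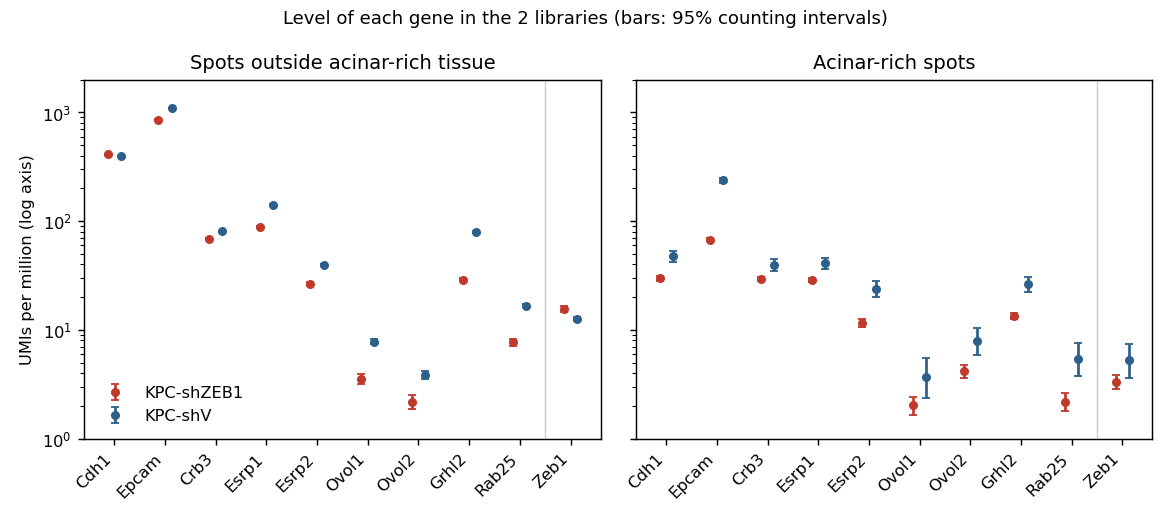
Level of each of the 9 genes and of Zeb1 in CPM (log axis) outside acinar-rich tissue (left) and in acinar-rich spots (right), with 95% counting intervals; points of 1 gene are to be compared between libraries, not with other genes. Outside acinar-rich spots KPC-shV lies above KPC-shZEB1 for 8 of 9 genes, and for Cdh1 the points nearly coincide (413 and 398 CPM).

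Cdh1 encodes E-cadherin, the adhesion receptor of adherens junctions (chromosome 8, 106603351 to 106670246, GRCm38). It was the only member not lower outside acinar-rich spots, with 413 CPM (35320 UMIs) in KPC-shZEB1 and 398 CPM (65838 UMIs) in KPC-shV, and with a ratio of 0.05 (0.04 to 0.07). The spots were spread more widely in KPC-shZEB1. Its median spot had 310 CPM against 352 CPM in KPC-shV, whereas the 95th percentile of spots was 1012 CPM against 715 CPM and the highest spot 1774 CPM against 1437 CPM. When the top 5% of spots of either library were left out, the ratio was -0.02 (-0.04 to 0.00), and over all spots it was -0.55. The direction of Cdh1 thus changed with the spots entered.

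Epcam, a surface adhesion protein of epithelial cells (chromosome 17, 87635979 to 87651129), had 858 CPM outside acinar-rich spots in KPC-shZEB1 and 1106 CPM in KPC-shV. The ratio was -0.37 (-0.38 to -0.35). The median spot had 639 CPM and 1083 CPM, respectively, and the 95th percentile had the opposite order, with 2320 CPM and 1916 CPM. The single highest spot had 3781 CPM and 6428 CPM. In KPC-shV the 9 genes summed peaked at the same 6428 CPM, so that spot held no UMI of another member. It is 1 spot and does not describe the range of Epcam. The middle of the spots was thus lower in KPC-shZEB1 and the upper tail, up to the 95th percentile, was not.

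Crb3 is a small transmembrane protein of the Crumbs complex, which sets up the apical membrane (chromosome 17, 57059105 to 57065918). Its level was 68.6 CPM in KPC-shZEB1 and 80.6 CPM in KPC-shV. At -0.23 (-0.28 to -0.19) it had the smallest ratio among the 8 lower genes. Its highest spot by count held 28 UMIs in KPC-shZEB1 and 22 in KPC-shV, whereas by level the highest spot had 371 CPM and 637 CPM. The 95th percentile of spots was 174 CPM and 182 CPM.

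The paired splicing regulators were both lower. Esrp1, which together with Esrp2 maintains epithelial isoforms (chromosome 4, 11331933 to 11386783), had 87.7 CPM against 142 CPM and a ratio of -0.70 (-0.74 to -0.66). Its median spot had 62.1 CPM against 123 CPM. Esrp2 (chromosome 8, 106130319 to 106136974) had 26.3 CPM against 39.4 CPM and a ratio of -0.58 (-0.65 to -0.52). The ratios of the paralogs lay close together, although their intervals did not overlap.

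Of the transcription factors, Grhl2, a grainyhead factor that activates Cdh1 and other epithelial genes (chromosome 15, 37233036 to 37363569), had the lowest ratio of all 9. Its level was 29.1 CPM (2486 UMIs) in KPC-shZEB1 and 79.8 CPM (13221 UMIs) in KPC-shV, a ratio of -1.46 (-1.52 to -1.40). At least 1 UMI was seen in 572 of 1463 spots (39.1%) against 2311 of 3304 spots (69.9%). After each spot was thinned to 20000 UMIs, these shares were 26.3% (24.03% to 28.7%) of 1410 spots and 64.9% (63.1% to 66.7%) of 2672 spots, with 53 and 632 shallower spots left out. The top 5% of spots held 38.6% of its UMIs in KPC-shZEB1 and 20.1% in KPC-shV. This share was higher in KPC-shZEB1 for every member, for example 41.5% and 24.7% for Rab25 and 17.7% and 14.6% for Cdh1. Such shares were not computed for all genes, so this does not set the members apart. A lower count raises such a share as well, so it is not a measure of concentration alone. The highest spot by count held 29 UMIs in KPC-shZEB1 and 25 in KPC-shV. By level the order was the opposite, with 298 CPM and 832 CPM in the highest spot. The 95th percentile of spots was 127 CPM and 207 CPM. Both libraries thus had a spot with at least 25 Grhl2 UMIs. The 95th percentile was lower in KPC-shZEB1, and spots without a Grhl2 UMI were more frequent there.

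Ovol1 (chromosome 19, 5549136 to 5560646) and Ovol2 (chromosome 2, 144305175 to 144332146) are zinc finger repressors that hold cells in the epithelial state. Ovol1 had 3.54 CPM against 7.80 CPM and a ratio of -1.14 (-1.32 to -0.96). Ovol2 had 2.17 CPM (186 UMIs) against 3.84 CPM (636 UMIs) and a ratio of -0.82 (-1.06 to -0.58). Both counts are low. A gauge was chosen after the values were seen, namely Opn1sw, Prm1, Tnp1, Crygb, Crygc and Gfap, which belong to eye, testis and brain. They had between 0.042 and 1.40 CPM in the same spots, below Ovol2 in either library. The highest was Prm1 in KPC-shZEB1, at 1.40 CPM against the 2.17 CPM of Ovol2. Since probe number differs between genes, this gauge is rough.

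Rab25, a Rab11 family GTPase of apical recycling endosomes (chromosome 3, 88542029 to 88548300), had 7.73 CPM (661 UMIs) in KPC-shZEB1 and 16.7 CPM (2771 UMIs) in KPC-shV. The ratio was -1.11 (-1.24 to -0.99). After thinning to 20000 UMIs it was found in 10.6% of spots against 27.1%. Over all members, at least 5 of the 9 genes were detected in 532 of 1410 thinned spots (37.7%) in KPC-shZEB1 and in 1868 of 2672 (69.9%) in KPC-shV, with a median of 4 and 5 genes per spot.

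The acinar-rich spots held normal exocrine tissue, and the members differed in how far they fell there. Cdh1 was at 29.9 CPM in acinar-rich spots of KPC-shZEB1 against 413 CPM in its other spots, a log2 ratio of -3.79 (-3.86 to -3.72), and the ratio was -3.06 in KPC-shV. For Epcam these ratios were -3.66 and -2.21. Since enzyme UMIs fill the total of such spots, levels were also taken per 1000000 UMIs that are not from acinar genes. On that scale Cdh1 and Epcam in KPC-shZEB1 were still lower, at -2.55 and -2.42. Crb3, at 69.8 against 69.1, and Esrp2, at 27.5 against 26.5, were level to within counting error in KPC-shZEB1. Grhl2 was at 32.0 against 29.2 there, whereas in KPC-shV it was at 43.2 against 80.0. Between libraries, each member was lower in KPC-shZEB1 in acinar-rich spots as well, with ratios from -0.44 (Crb3) to -1.82 (Epcam). The share of all genes below 0 was not computed in acinar-rich spots, so this count has no background. The median acinar share of these spots was 60.1% in KPC-shZEB1 and 38.4% in KPC-shV, so enzyme UMIs fill more of the total in KPC-shZEB1. The summed ratio was -1.20 (-1.26 to -1.14). Per 1000000 non-acinar UMIs the sum was 449 in KPC-shZEB1 and 716 in KPC-shV. On that scale Crb3 (69.8 and 65.6) and Esrp1 (68.3 and 67.7) were not lower.

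Ovol2 was the only member higher in acinar-rich spots before that correction. Its level was 4.17 CPM against 2.17 CPM in KPC-shZEB1, a log2 ratio of 0.94 (0.65 to 1.23), and 7.90 CPM against 3.84 CPM in KPC-shV, a ratio of 1.04 (0.60 to 1.45). Acinar-rich spots held 55.2% of all Ovol2 UMIs of KPC-shZEB1 and 7.42% of those of KPC-shV. Its ratio between libraries was accordingly the only one nearer to 0 over all spots (-0.43) than outside acinar-rich spots. Zeb1 was lower in acinar-rich spots, with 3.31 CPM against 15.6 CPM in KPC-shZEB1.

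**Figure D2:**
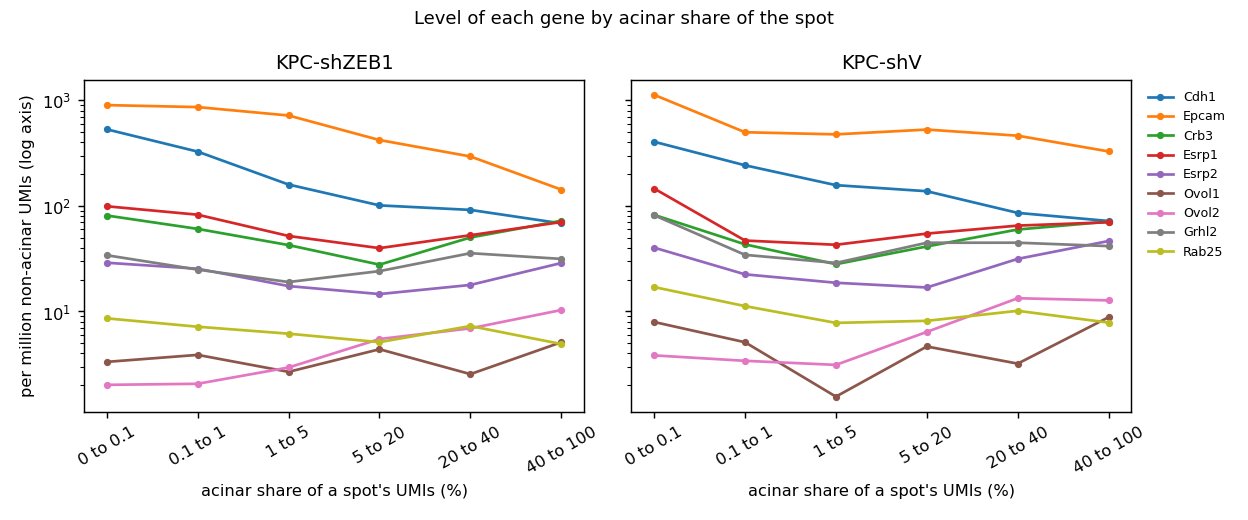
Level of each gene per 1000000 non-acinar UMIs (log axis) in spots grouped by the acinar share of their UMIs, in each library. Cdh1 in KPC-shZEB1 went from 532 in spots under 0.1% to 68.3 in spots over 40%, while Ovol2 went from 2.02 to 10.3.

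The keratins Krt7, Krt8 and Krt19 were taken as a gauge of tumor epithelium in a spot. Their summed level outside acinar-rich spots was 4548 CPM in KPC-shZEB1 and 4889 CPM in KPC-shV (ratio -0.10). Per 1000 keratin UMIs, the 9 genes together had 329 UMIs in KPC-shZEB1 and 383 in KPC-shV, a ratio of -0.22 (-0.23 to -0.21). Per keratin UMI, Grhl2 was at -1.35, Ovol1 at -1.03, Rab25 at -1.01, Ovol2 at -0.72, Esrp1 at -0.60, Esrp2 at -0.48, Epcam at -0.26 and Crb3 at -0.13. Cdh1 was at 0.16 (0.14 to 0.18). This scale moves the ratio of every gene by the same amount, the keratin ratio. That ratio is of a sum, and its genes differed outside acinar-rich spots, with Krt7 at -0.25, Krt8 at -0.08 and Krt19 at 0.27. Cdh1, at 0.05 in CPM, lay above Krt7 and Krt8 and below Krt19, so its sign on this scale depends on the keratin taken. Crb3, at -0.23, lay close to Krt7. The summed level of the 9 genes, at -0.33, lay below each keratin. Ratios per single keratin were not computed, and the intervals do not cover this choice.

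**Figure D3:**
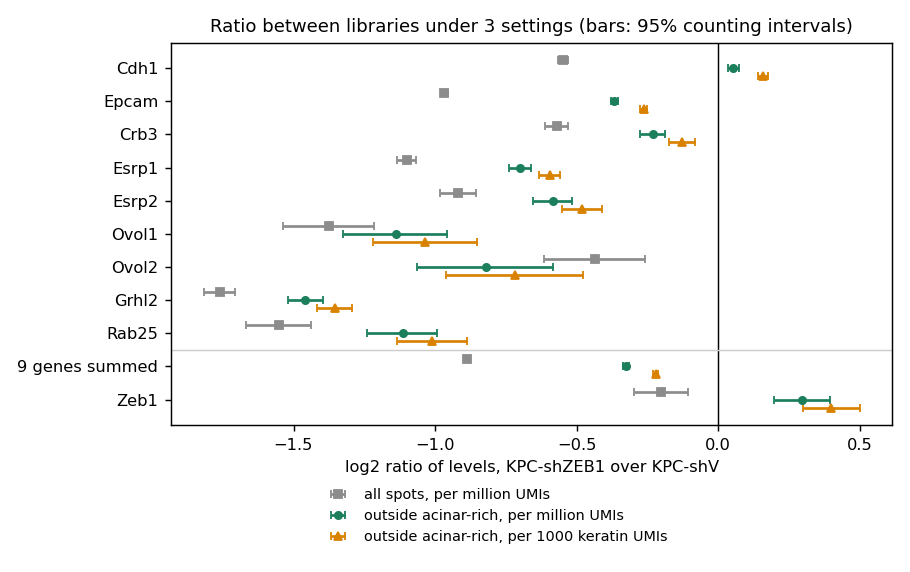
Log2 ratio between the libraries (KPC-shZEB1 divided by KPC-shV) for each gene, their sum and Zeb1, with 95% counting intervals, over all spots, outside acinar-rich spots and per 1000 keratin UMIs. All members but Cdh1 lie left of 0 in each setting; the ratio of Zeb1 goes from -0.20 over all spots to 0.30 outside acinar-rich spots.

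Spots outside acinar-rich tissue were then divided into 4 classes at the quartiles of their keratin level over the 2 libraries. In the lowest class, the summed level of the 9 genes was 442 CPM in KPC-shZEB1 and 588 CPM in KPC-shV, a ratio of -0.41. In the highest class it was 2466 CPM and 2389 CPM, a ratio of 0.05 (0.03 to 0.06). The members above 0 in the highest class were Cdh1 and Crb3. Cdh1 was at 753 CPM against 541 CPM there (ratio 0.48, 0.45 to 0.50), and its ratio was -0.39 in the lowest class. Crb3 was at 113 CPM and 108 CPM in the highest class, and Epcam at 1353 CPM and 1392 CPM. From the lowest to the highest class, Zeb1 had ratios of 0.17, 0.07, 0.33 and 0.13. Its interval excluded 0 only in the third class (0.07 to 0.57). Of the 9 genes, 7 had a ratio below 0 in the highest class and all 9 had one in the lowest, where only the interval of Ovol1 included 0. The share of all genes below 0 was not computed within a class, so these counts have no background to be read against.

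Grhl2, Rab25 and Ovol1, which were below -1 outside acinar-rich spots, stayed lower among keratin-rich spots. In the highest class Ovol2 (-0.74), Esrp1 (-0.32), Esrp2 (-0.24) and Epcam (-0.04) were lower as well. Grhl2 had 48.7 CPM against 93.8 CPM in the highest class (ratio -0.95) and 20.5 CPM against 66.0 CPM in the second (-1.69). Rab25 had 13.3 CPM against 19.5 CPM in the highest class (-0.55) and 4.68 CPM against 16.0 CPM in the second (-1.78). Ovol1 had 4.96 CPM against 12.3 CPM in the highest class (-1.31). After thinning to 20000 UMIs, Grhl2 was detected in 152 of 405 spots (37.5%, interval 32.8% to 42.4%) of the highest class in KPC-shZEB1 and in 497 of 661 spots (75.2%, 71.7% to 78.4%) in KPC-shV. Cdh1 was detected there in 405 of 405 and in 660 of 661 spots. In thinned spots with at least 10 Cdh1 UMIs, Grhl2 was found in 192 of 503 (38.2%) in KPC-shZEB1 and in 667 of 854 (78.1%) in KPC-shV. In the same spots Esrp1 was found in 86.9% and 89.6%, Esrp2 in 53.7% and 60.0%, Crb3 in 83.7% and 83.6% and Epcam in 100% and 97.4%. The shares of the scarcer members were also lower in KPC-shZEB1, with Rab25 at 15.9% and 32.6%, Ovol1 at 7.75% and 17.7% and Ovol2 at 4.97% and 8.43%. Spots rich in E-cadherin RNA and without a Grhl2 UMI were thus more frequent in KPC-shZEB1.

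**Figure D4:**
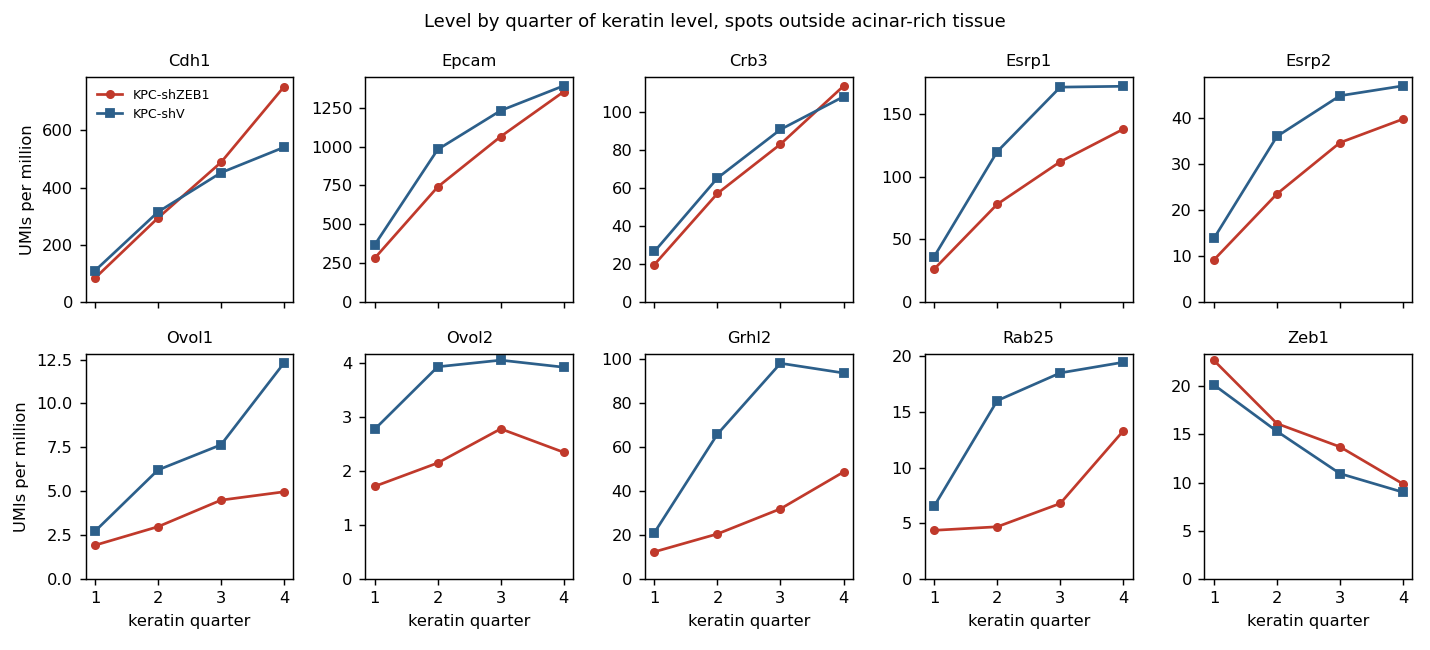
Level of each gene and of Zeb1 in CPM in spots outside acinar-rich tissue, by class of keratin level from lowest (1) to highest (4). Cdh1 crosses over and reaches 753 against 541 CPM in the highest class, while Grhl2 stays at 48.7 against 93.8 CPM.

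Other cell types and programs also differed outside acinar-rich spots, and their part in the levels above was not tested. The fibroblast list had a summed level of 8139 CPM in KPC-shZEB1 and 6531 CPM in KPC-shV (6 of 7 genes higher), the macrophage list 2235 and 1406 CPM (5 of 5 higher) and the T cell list 97.8 and 19.9 CPM (5 of 5 higher). The B cell list had 36.9 and 8.62 CPM (4 of 4 higher). The neutrophil list had 127 and 303 CPM (4 of 4 lower), the endothelium list 82.6 and 108 CPM (4 of 4 lower) and the hypoxia list 560 and 1316 CPM (8 of 8 lower). Acinar genes were still at 6570 and 1932 CPM in these spots. The normal duct list had 240 and 202 CPM (5 of 7 higher), the islet list 97.6 and 61.3 CPM (6 of 7 higher), the mesothelium list 275 and 278 CPM (4 of 5 higher) and the proliferation list 830 and 859 CPM (1 of 4 higher). The intestinal epithelium list had 1247 and 478 CPM, mostly from Lgals4, at 1026 and 322 CPM. No gene of any of these lists was at 0 in either library.

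Partners of the members were counted from lists of epithelial genes, and those named as highest or lowest are among genes with at least 1000 UMIs. Of 13 adherens junction and desmosome genes, 10 were lower and 3 higher in KPC-shZEB1 outside acinar-rich spots, with a median ratio of -0.41. The catenins of the E-cadherin complex were at -0.57 (Ctnnd1), -0.41 (Ctnna1) and -0.35 (Ctnnb1). The lowest in the list were Pkp1 (-1.43), Cdh3, or P-cadherin (-1.01), and Pkp3 (-0.83). The highest were the desmosomal cadherins Dsc2 (1.38) and Dsg2 (0.51), followed by Dsp (0.06).

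Of 12 tight junction genes, 10 were lower and 2 higher, with a median of -0.25. The claudins Cldn4 (32.3 CPM against 111 CPM, ratio -1.78) and Cldn7 (342 CPM against 672 CPM, ratio -0.97) were lowest. Tjp3 (0.37) and F11r (0.02) were the higher ones. All 10 apical polarity genes were lower, with a median of -0.27. Among them Pard6b (-0.79), Pard3 (-0.55) and Mpp5 (-0.43), which encodes the Pals1 scaffold bound by Crb3, were lowest, and Patj, the other scaffold of the Crumbs complex, was at -0.41. Rbm47, another epithelial splicing regulator, was at -0.26.

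Epithelial transcription factors other than members were mixed, with 6 of 10 higher and 4 lower (median 0.13). Klf5 (0.46) and Ehf (0.11) were among the higher and Foxa1 (-0.42), Foxa2 (-0.24) and Klf4 (-0.22) lowest. Trafficking and surface protease genes were also mixed, with 6 of 12 higher and 6 lower (median -0.04). Tmprss2 (1.05), the protease inhibitor Spint2 (0.19) and Muc1 (0.18) were highest. The proteases Prss8 (-1.22, but 0.12 over all spots) and St14 (-0.53) were among the lower. The median of all tested genes in these spots was -0.01.

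Of 6 transcription factors that drive epithelial-mesenchymal transition, 4 were higher and 2 lower. Snai2 (1.04), Twist1 (0.73) and Zeb1 (0.30) were highest and Snai1 (-0.46) lowest, with Prrx1 at -0.01. Among 7 mesenchymal genes, 4 were higher, with Cdh2, or N-cadherin, at 1.06 and Vim at 0.49. The lowest were Qk (-0.75), a splicing factor of mesenchymal cells, and Fn1 (-0.42). Over all spots, where the median of all genes was -0.48 and 13.65% of them were above 0, the numbers of genes above 0 were 2 of 13 for adherens junctions and desmosomes, 0 of 12 for tight junctions, 0 of 10 for polarity, 1 of 10 for transcription factors, 3 of 12 for trafficking, 2 of 6 for drivers of the transition and 1 of 7 for mesenchymal genes.

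Within each library, spots with more of one member tended to have more of the others. Correlations were computed on log2(count + 1) after thinning to 20000 UMIs, over 1410 and 2672 spots of 1 section each. Spots of a section share a library, and a low count lowers r, so the coefficients are a description. All 36 pairs had r above 0 in both libraries. The median r was 0.18 in KPC-shZEB1 (range 0.00 to 0.75) and 0.14 in KPC-shV (0.02 to 0.62), and with another random thinning it was 0.17 in both. For comparison, each member had a median r with 7471 other genes of at least 20 CPM. In KPC-shZEB1 it ran from 0.0006 (Ovol2) to 0.05 (Cdh1), and in KPC-shV from -0.0003 (Ovol1) to 0.04 (Cdh1). Those genes are not matched to the members in level. The share of other gene pairs with r above 0 was not computed. The strongest pair was Cdh1 and Epcam in KPC-shZEB1 (0.75) and Epcam and Esrp1 in KPC-shV (0.62). Cdh1 and Epcam were at 0.47 in KPC-shV. Cdh1 correlated with Crb3 at 0.55 and 0.35 and with Esrp1 at 0.56 and 0.40 in KPC-shZEB1 and KPC-shV, respectively.

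The r of Grhl2 with Cdh1 and Epcam was lower in KPC-shZEB1 than in KPC-shV, a difference that was not tested. It was 0.26 with Cdh1, 0.30 with Epcam and 0.36 with Esrp1 in KPC-shZEB1, and 0.35, 0.48 and 0.47 in KPC-shV. With Rab25 it was 0.30 in KPC-shZEB1 and 0.14 in KPC-shV. Grhl2 had a mean of 0.54 UMIs per thinned spot in KPC-shZEB1 and 1.56 in KPC-shV, and a low count lowers r. Pairs with Ovol2 did not exceed 0.09 in either library, at a mean of 0.049 and 0.076 UMIs per thinned spot.

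Among the 6 genes with a mean of at least 0.5 UMIs per thinned spot (Cdh1, Epcam, Crb3, Esrp1, Esrp2 and Grhl2), the 15 pairs had a median r of 0.35 in both libraries. Corrected for counting noise, their median was 0.68 in KPC-shZEB1 (0.30 to 0.92) and 0.76 in KPC-shV (0.56 to 0.99). The correction was made on counts without log2, so these values differ from r in scale as well. For Cdh1 and Epcam in KPC-shZEB1 the corrected value (0.66) was below r (0.75). The lowest corrected value in KPC-shZEB1 was that of Epcam and Grhl2 (0.30), which was 0.61 in KPC-shV. Cdh1 and Grhl2 were at 0.38 and 0.58. The pairs among Cdh1, Epcam, Crb3 and Esrp1 lay between 0.61 and 0.92 in KPC-shZEB1.

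The pair correlations had a lower median once keratin and fibroblast RNA was taken into account. These are RNA levels and not amounts of tissue, and the source of the shared variation was not tested. Given the keratins and the fibroblast list, the median partial r was 0.12 in KPC-shZEB1 and 0.07 in KPC-shV, and 35 of 36 pairs stayed above 0 in each. The highest partial r was that of Cdh1 and Epcam (0.45) in KPC-shZEB1 and that of Epcam and Esrp1 (0.48) in KPC-shV. Cdh1 and Epcam had a partial r of 0.10 in KPC-shV. For Grhl2 and Cdh1 partial r was 0.16 in KPC-shZEB1 and 0.14 in KPC-shV, so the lower r in KPC-shZEB1 was not kept. For Grhl2 and Epcam it was 0.23 and 0.35.

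**Figure D5:**
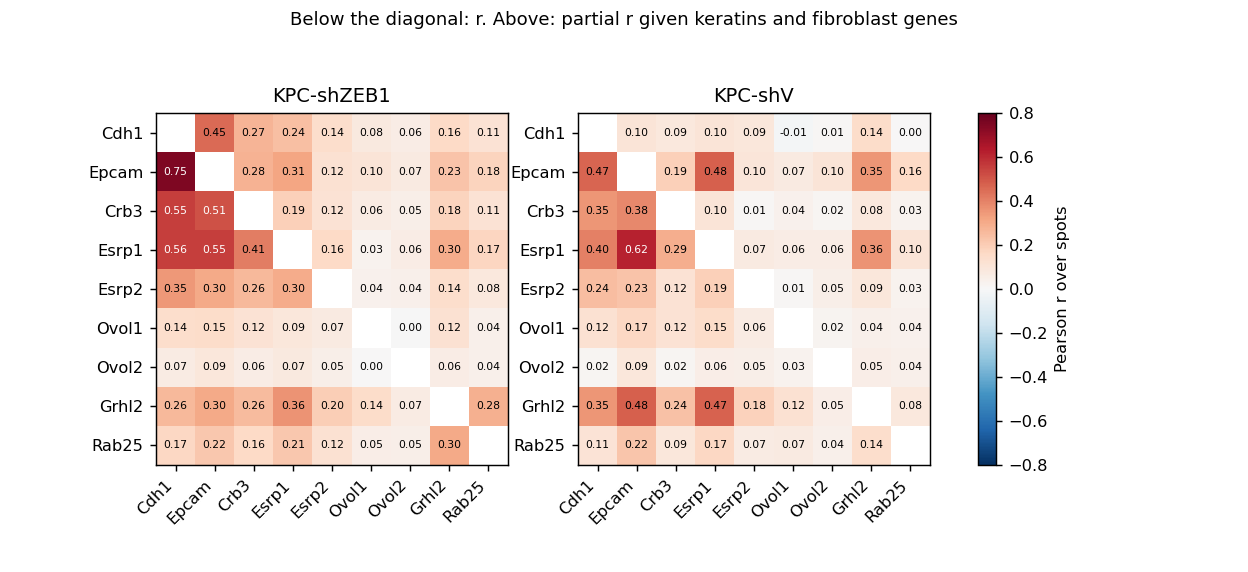
Pearson r over spots outside acinar-rich tissue for the 36 pairs of the 9 genes in each library, on thinned counts; values below the diagonal are r and those above it are partial r given keratins and fibroblast genes. Cdh1 and Epcam reach 0.75 in KPC-shZEB1 and 0.47 in KPC-shV, and pairs with Ovol2 are near 0 in both.

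The summed members, by count mostly Epcam and Cdh1, followed the keratins (r = 0.80 in KPC-shZEB1 and 0.72 in KPC-shV) and the tight junction list (0.78 and 0.85). With the list of trafficking and surface protease genes r was 0.85 and 0.81. Spint2 alone had 1307 of the 1826 CPM of that list in KPC-shZEB1 and 1149 of 1669 CPM in KPC-shV. The summed members ran against the fibroblast list (-0.56 and -0.59), the mesenchymal list (-0.51 and -0.51), the transcription factors of epithelial-mesenchymal transition (-0.53 and -0.60) and the macrophage list (-0.55 and -0.51). With Zeb1 itself r was -0.19 and -0.22, and with Zeb2 it was -0.44 and -0.46. Zeb2 and Prrx1 had the highest levels among the transition factors, at 53.3 and 41.0 of 159 CPM in KPC-shZEB1. In KPC-shV they had 44.2 and 41.3 of 142 CPM. A spot may mix tumor and host cells, and no partial r was computed for these lists. The values therefore do not show a relation within tumor cells. Grhl2 differed from Cdh1 in its relation to Vim, with r of -0.51 and -0.50 against -0.17 and -0.23 for Cdh1. The intestinal list followed Cdh1 (0.77) and Epcam (0.72) in KPC-shZEB1 and not Grhl2 (0.00). In KPC-shV its r was lower with Cdh1 (0.42) and Epcam (0.27), and with Grhl2 it was 0.03. Hypoxia genes had r of 0.30 and 0.40 with the summed members.

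The 5 genes most like the summed members over spots, by the lower r of the 2 libraries, were Spint2 (0.83 in KPC-shZEB1 and 0.78 in KPC-shV), Krt7 (0.78 and 0.75), Gpa33 (0.75 and 0.74), Lad1 (0.70 and 0.67) and S100a14 (0.66 and 0.75). Spint2 encodes an inhibitor of surface serine proteases, Krt7 a keratin of simple epithelia and Lad1 a protein of the epithelial anchoring filaments. For 95% of the 7471 genes r was at most 0.34 and 0.30. For Grhl2 alone the nearest genes were S100a14 (0.47 and 0.47), Ltf (0.47 and 0.44) and Gabrp (0.41 and 0.45), whereas for Cdh1 they were Spint2 (0.79 and 0.70), Krt19 (0.83 and 0.65) and Krt7 (0.81 and 0.65).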

How the data were processed

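Spatial transcriptomes were measured in tumors of KPC-shZEB1 and KPC-shV cells, with 1 library each. Per the labels, reads were processed with Space Ranger 2.0.1 on mm10, and the authors deposited unnormalized counts of UMIs for each gene in each spot over tissue. Depth was 140493626 and 172059528 UMIs, so counting error is small for abundant genes. The feature lists were identical, with 11 repeated symbols, and 1718 spot barcodes occurred in both libraries, as slides share 1 barcode set.

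From these counts, levels (CPM), log2 ratios and exact 95% intervals were computed in Python 3.11.15 with numpy 2.4.6, scipy 1.17.1 and pandas 2.3.3, and drawn with matplotlib 3.10.9. No p-value was computed. The acinar list held 26 genes, of which 21 were in the features. Krt18, Twist2, Ccnb1 and Pals1 (present as Mpp5) were not in the features either. Thinning was random, without replacement, to 20000 UMIs. Keratin classes were cut at quartiles over both libraries. Partial correlations were given the thinned sums of keratins and fibroblast genes. Noise correction used thinned counts without log2 and divided their covariance by the variance in excess of the mean. Scripts were tested on simulated data.

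Named were all 9 members, Zeb1, up to 3 genes each way per list among those with at least 1000 UMIs, partners of a member by role, and the 5 genes most like the summed members; a few genes that this rule names are not reported here. The members and lists were chosen with earlier results of these data known. Shares within keratin classes and within spots chosen by their Cdh1 UMIs were added after the values were seen. So were the gauge of low levels and the restriction to genes with at least 0.5 UMIs per spot. Gene positions came from GENCODE M21 (GRCm38), matched for 19451 of 19465 features. No image or position of a spot entered the computations.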

Additional observations from a re-analysis of the deposited data

How the results depend on the processing

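The summed level of the 9 genes was lower in KPC-shZEB1 under every alternative of processing listed here, and its size changed. Keratin classes are not among these alternatives, and in the highest class the summed ratio was 0.05. Over all spots the log2 ratio was -0.89, and it was -0.53 with acinar genes out of the total, -0.40 with median-of-ratios scaling, -0.69 when the CPM of single spots was averaged, -1.03 without the 5% of spots with the highest level and -1.02 as an average over the 9 single-gene ratios. Outside acinar-rich spots it was -0.33, and it was -0.30 and -0.36 with acinar-rich limits of 5% and 40%, -0.31 with median-of-ratios scaling, -0.27 when the CPM of single spots was averaged, -0.40 without the 5% of spots with the highest level and -0.71 as an average over single-gene ratios. Of 72 alternative values for single members outside acinar-rich spots, 70 kept their sign. The 2 that turned were both of Cdh1, to -0.55 over all spots and -0.020 without the 5% of spots with the highest level. The ratio of Zeb1 turned to -0.20 over all spots, where the median of all tested genes was -0.48.

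The median pair correlation, 0.18 in KPC-shZEB1 and 0.14 in KPC-shV, was 0.087 and 0.057 with spots thinned to 5000 UMIs, 0.29 and 0.34 with no thinning on log2(CPM + 10), and 0.12 and 0.074 as a partial correlation. With another random thinning it was 0.168 and 0.170, so the order of the libraries turned with the draw. Corrected for counting noise, on counts without log2, it was 0.67 over 36 pairs in KPC-shZEB1. In KPC-shV it was 0.61 over the 28 pairs that could be computed, since Ovol2 had no excess variance there. Some corrected values in KPC-shZEB1 were over 1 (1.60 for Ovol2 and Rab25, 1.08 for Grhl2 and Rab25), which no correlation can be. Over the 6 genes with at least 0.5 UMIs per spot, an alternative chosen after seeing the data, it was 0.35 and 0.35. No paired analysis was possible because each group has 1 library, and leaving out a replicate was not possible for the same reason. Values for Ovol1 and Ovol2 are limited by their low counts.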
